A study of Homo sapiens and Mus musculus with 12 samples.

Results

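The genes described are the molecular chaperones of the heat shock protein and chaperonin families, followed in natural killer (NK) cells that had lost the histone methyltransferase EHMT2 or were treated with an inhibitor of it. Members were chosen by symbol: the HSPA, HSPB, HSP90, DNAJA, DNAJB, DNAJC and CCT families, HSPD1, HSPE1 and HSPH1, and the heat shock transcription factors HSF1 and HSF2, each with 10 or more counts in at least 3 libraries of its table. In mouse 70 of 83 matching symbols passed, of 22021 genes listed, and in human 74 of 95, of 18304 genes listed. The mouse members were all protein-coding, with Hspa14 listed on 2 rows that could not be told apart by symbol. In human 62 members were protein-coding and 12 were pseudogenes, antisense or divergent transcripts. The human genes HSPA1A, HSPA1B and HSPB1 were not analysed here.

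RNA-seq was made from sorted splenic NK cells of WT and KO mice and from the human line NK92MI treated with BIX-01294 or with its solvent DMSO, with 3 libraries in each group. WT mice carried Ehmt2 flanked by loxP sites (Ehmt2 flox/flox), and KO mice carried the same alleles together with Ncr1-iCre, a Cre expressed from the gene of the NK receptor NKp46, so the deletion was restricted to cells that express Ncr1. The mice were adult C57BL/6J animals matched for age and sex. NK92MI is an NK lymphoma line engineered to produce the IL-2 it needs, and BIX-01294 inhibits the methyltransferases EHMT2 and EHMT1. The labels give no dose or time for BIX-01294, and for other assays the study describes exposing NK92MI to a submicromolar dose over several days. The genotype field of the KO samples reads Ezh2-KO where their titles read EHMT2-KO. The titles were followed. No label says whether replicates came from separate animals or cultures, so p-values measure the spread between these samples.

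Chaperones bind unfolded proteins and help them fold or reach degradation. HSP70 proteins (HSPA) take up client proteins with the aid of J-domain proteins (DNAJA, DNAJB and DNAJC), HSP90 proteins mature kinases and receptors, and the ring-shaped chaperonins HSP60 (HSPD1, with its lid HSPE1) and TRiC (CCT subunits) enclose a client in a chamber. In a heat shock response HSF1 binds heat shock elements in the promoters of many of these genes, while the unfolded protein response of the endoplasmic reticulum (ER) acts on HSPA5, HSP90B1 and their partners through ER stress elements, and in NK cells the ER and cytosolic chaperones serve the folding of receptors and of stored cytotoxic proteins.

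Library totals lay between 25891680 and 37438868 counts in mouse and between 16579469 and 17165446 in human, and values below are CPM, counts scaled to a common library size after TMM normalization. Mouse Ehmt2 was at 274.7, 284.4 and 285.5 CPM in WT and at 170.7, 142.7 and 136.9 in KO (log2 fold change −0.91, SE 0.10, adjusted p = 0.01624 by edgeR's quasi-likelihood test). In the mouse table summed NK cell genes lay between 8512 and 13290 CPM in WT and between 14910 and 17190 in KO, and WT replicate 2 had the highest WT value. Macrophage and monocyte markers summed to between 3432 and 10920 CPM in WT and between 1702 and 3181 in KO, with 11 of 16 called lower and 0 higher, and DESeq2 called 16 of 16 lower. B cell and plasma cell markers summed to 673.8 to 1936 CPM in WT and 148.9 to 657.3 in KO, neutrophil markers to 239.2 to 1798 and 58.92 to 263.1, erythroid and platelet markers to 1741 to 2625 and 1246 to 1387, and T cell markers to 260.7 to 353.8 and 213.2 to 356.8. Pancreatic acinar genes summed to 300 to 1834 CPM in WT and 15.65 to 24.38 in KO. The macrophage, B cell and plasma cell, erythroid and platelet, and acinar sums were lower in every KO library than in every WT library, while the neutrophil and T cell sums overlapped between the groups. The part of these transcripts in the KO against WT values below was not tested. In bulk RNA, fewer cells of a type and less RNA per cell cannot be told apart. In NK92MI the neutrophil, erythroid and platelet, and acinar lists each summed to at most 1.75 CPM in every library, and the macrophage list to at most 11.5. Its NK cell genes summed to 5625 to 6080 CPM in DMSO and 7461 to 9142 in BIX, with T cell markers at 607.4 to 714.3 and B cell and plasma cell markers at 55.3 to 67.6 over all libraries. The NK cell genes did not move as 1: of 13 tested, 6 were called higher (46.2%) and 4 lower (30.8%). Over all genes tested there, 18.4% were called in each direction. EHMT2 itself was at 57.1, 61.6 and 54.3 CPM in DMSO and 40.4, 39.3 and 35.8 in BIX (log2 fold change −0.58, adjusted p = 0.0001014, edgeR).

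The human sequences in which an exact form of the classic stress elements stands are shown first. They mark which members carry that form near the start, and not every member that a heat shock or ER stress factor can act on. Of the 62 protein-coding human members, 56 were matched to RefSeq promoters of GRCh38.p14, each running from 250 bases before to 50 bases after the start. A heat shock element was searched as GAANNTTCNNGAA on both strands, and an ER stress element as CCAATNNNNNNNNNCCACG on both strands of each promoter, and no member held both. The heat shock element was found in 133 of 27305 promoters (0.487%) and in 4 of the 56 members (7.14%), namely HSPA8, HSPA6, DNAJB6 and DNAJA1, and the ER stress element in 22 promoters (0.0806%) and 2 members (3.57%), HSPA5 and HSP90B1. Each stretch below is written 5′ to 3′ along the strand of its gene, with the element in capitals. The stretch of DNAJA1 is not shown.
HSPA8 (chr11:123062164-123062381, minus strand): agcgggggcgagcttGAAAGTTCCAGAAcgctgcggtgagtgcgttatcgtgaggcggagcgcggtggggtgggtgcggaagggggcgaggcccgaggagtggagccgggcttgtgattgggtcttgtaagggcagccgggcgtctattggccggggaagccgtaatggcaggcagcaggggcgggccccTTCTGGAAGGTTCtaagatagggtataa
HSPA6 (chr1:161524451-161524493, plus strand): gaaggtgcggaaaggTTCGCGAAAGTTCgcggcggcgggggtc
DNAJB6 (chr7:157336858-157336900, plus strand): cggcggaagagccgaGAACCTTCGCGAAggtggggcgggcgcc
HSPA5 (chr9:125241376-125241424, minus strand): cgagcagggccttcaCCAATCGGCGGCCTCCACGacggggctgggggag
HSP90B1 (chr12:103930201-103930354, plus strand): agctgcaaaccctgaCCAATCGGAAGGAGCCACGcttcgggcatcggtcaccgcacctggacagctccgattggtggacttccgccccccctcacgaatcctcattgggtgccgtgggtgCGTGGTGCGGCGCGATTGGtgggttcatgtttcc
HSPA8 held 2 heat shock elements, 230 and 55 bases upstream of its RefSeq start, HSPA6 had its element 74 bases upstream and DNAJB6 131 bases upstream. In DNAJA1 the element began 3 bases downstream of the start. The ER stress element of HSPA5 began 66 bases upstream, and HSP90B1 held 2, at 194 and 89 bases. A match is a description of the letters and not a measured site. Only these exact letters were searched, so a promoter without a match may hold the element in another form or farther away. Under BIX-01294 the 4 members with a heat shock element match comprised 1 called higher (DNAJB6), 2 called lower (HSPA8 and HSPA6) and 1 without a call (DNAJA1). Among the 52 members whose promoter held no such match, 9 were called higher and 15 lower. Over all genes tested, 18.4% were called higher and 18.4% lower, and 4 members are too few to compare with these shares. Of the ER stress element pair, HSPA5 was called lower and HSP90B1 was not called.

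In NK92MI cells treated with BIX-01294, HSPA8, HSPA5, both cytosolic HSP90 genes, HSPD1 and 4 TRiC subunits were called lower than with DMSO. Of 36 J-domain genes, 9 were called higher and 9 lower. A call required an adjusted p under 0.05 in edgeR's quasi-likelihood test, with the adjustment made over every gene tested. Of the 62 protein-coding members 10 were called higher (16.1%) and 20 lower (32.3%), against a background of 18.4% of 12727 tested genes called higher and 18.4% called lower. The median log2 fold change was −0.076 over the protein-coding members and −0.008 over all genes tested. The DMSO and BIX libraries did not overlap in 11 members that were higher and 25 that were lower, which was 17.7% and 40.3% of the members beside 24.1% and 23.9% of all genes. DESeq2 called 10 and 20 of the protein-coding members, where it called 15.5% and 14.5% of all genes. Over the 73 members tested, the study's stricter thresholds (a |log2 fold change| above 0.5 with an adjusted p below 0.01) left 4 higher and 3 lower with edgeR, beside 6.24% and 5.43% of all genes, and 5 and 2 with DESeq2, beside 5.56% and 4.51%. An unadjusted p under 0.05 was reached by 37 of the 62, beside 46.1% of all genes. Summed over the 62 members, the level was 16454, 16591 and 16137 CPM in DMSO and 14394, 13807 and 14731 CPM in BIX. Every DMSO library therefore lay above every BIX library in total chaperone transcript, which made up 1.62 to 1.66% of the counts in DMSO and 1.39 to 1.46% in BIX.

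**Figure D1:**
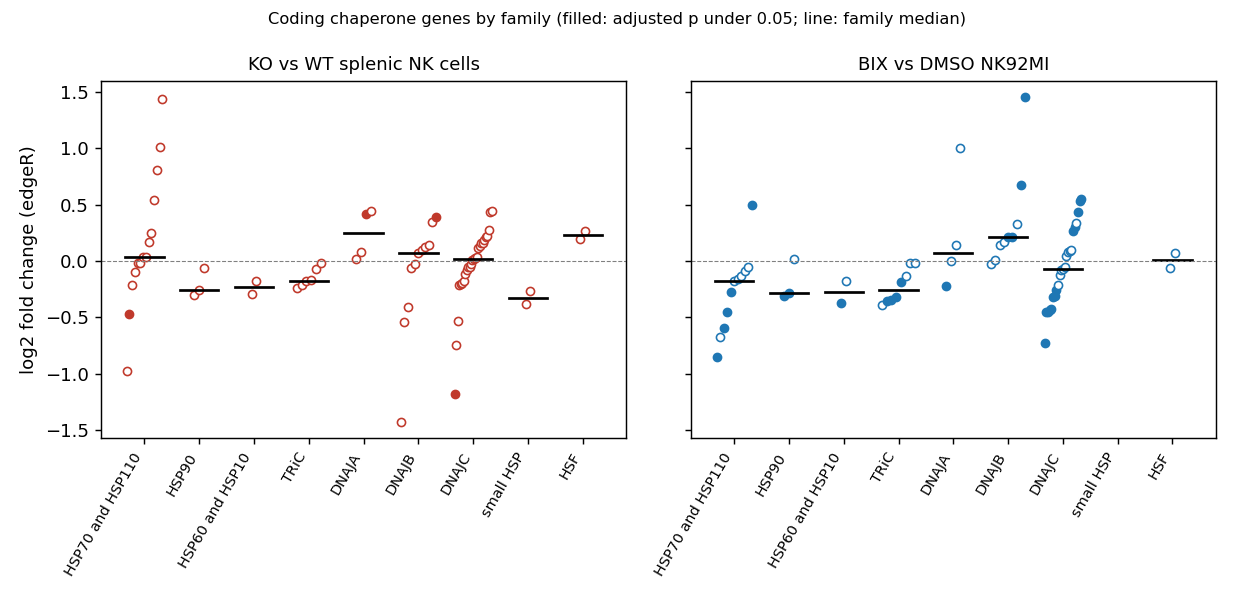
The log2 fold change of each protein-coding member (vertical axis) by family (horizontal axis), on the left for KO against WT spleen NK cells and on the right for BIX against DMSO in NK92MI; filled points had an adjusted p under 0.05 and black lines are family medians. On the right all 8 TRiC members lay below 0 and 8 of 9 DNAJB members above it, and on the left 4 of 70 points are filled.

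Most of this difference lay in the HSP70 and HSP90 families. The HSP70 and HSP110 genes summed to 4605, 4596 and 4429 CPM in DMSO and 3629, 3549 and 3703 in BIX, and the HSP90 genes to 5529, 5600 and 5416 and to 4701, 4447 and 4744. HSPA8, the constitutive cytosolic HSP70 also known as HSC70 (chromosome 11, 123057489 to 123063230, GRCh38), was at 1817, 1839 and 1759 CPM in DMSO and at 1186, 1174 and 1230 CPM in BIX. The groups were far apart relative to their spread, and HSPA8 fell by 0.59 on the log2 scale (SE 0.06, adjusted p = 3.39e-06, edgeR), which is 1.51-fold lower. HSPA5, the ER HSP70 known as BiP, was at 859, 815 and 779 CPM in DMSO and 610, 554 and 632 in BIX, again without overlap (log2 fold change −0.45, SE 0.07, adjusted p = 0.000164). HSPA6, a strictly stress-inducible HSP70, was low throughout, at 11.2, 14.6 and 14.7 CPM in DMSO and 7.49, 6.58 and 8.27 in BIX (log2 fold change −0.86, SE 0.15, adjusted p = 0.0004556). Its reads may be shared with the near-identical copy HSPA7, which stayed under the count minimum. HSPA14, the partner of DNAJC2 on the ribosome, also fell, by 0.27 on the log2 scale (adjusted p = 0.007484).

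The remaining HSP70 relatives rose or did not pass the test. HSPA13, an HSP70-like protein of the ER and secretory pathway, was at 137, 133 and 145 CPM in DMSO and 197, 211 and 178 in BIX, and was the 1 HSP70 member that rose (log2 fold change 0.50, SE 0.07, adjusted p = 0.000124). HSPA9, the mitochondrial HSP70 mortalin, was at 939, 994 and 928 CPM in DMSO and 875, 839 and 900 in BIX (log2 fold change −0.13, adjusted p = 0.1003). These groups did not overlap, yet the difference did not pass the threshold. HSPH1, the HSP110 that exchanges nucleotide on HSP70, stood at 496, 461 and 479 CPM in DMSO and 453, 461 and 470 in BIX (log2 fold change −0.05, adjusted p = 0.5092). Over the 11 protein-coding members of the HSP70 and HSP110 family 1 was called higher (9.09%) and 4 lower (36.4%). These shares stand beside 18.4% of all genes in each direction. In this family 10 of 11 fold changes lay below 0, and the median was −0.17. Without genes of a mean CPM under 1, or without BIX replicate 3, the median was −0.27.

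Both cytosolic HSP90 genes fell, and the ER form did not pass the test. HSP90AB1, the constitutive HSP90 and the member with the highest level per length, was at 2852, 3029 and 2809 CPM in DMSO and 2338, 2245 and 2420 in BIX (log2 fold change −0.31, SE 0.06, adjusted p = 0.000931). HSP90AA1, the stress-responsive HSP90, was at 1881, 1812 and 1804 CPM in DMSO and 1537, 1456 and 1509 in BIX (log2 fold change −0.29, SE 0.06, adjusted p = 0.001215). In both genes the lowest DMSO library lay above the highest BIX library. HSP90B1, the ER form known as GRP94, was at 796, 759 and 802 CPM in DMSO and 827, 745 and 814 in BIX (log2 fold change 0.02, SE 0.06, adjusted p = 0.8484). Here the groups overlapped fully. HSP90B1 and HSPA5 are classic joint targets of the unfolded protein response, and the difference between these genes was not tested.

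Among the chaperonins, HSPD1, the mitochondrial HSP60, was at 639, 623 and 615 CPM in DMSO and 478, 467 and 505 in BIX, without overlap (log2 fold change −0.37, SE 0.06, adjusted p = 0.0002731). HSPE1, its co-chaperonin, was at 8.79, 8.65 and 10 CPM in DMSO and 9.86, 6.17 and 8.27 in BIX (log2 fold change −0.18, adjusted p = 0.4384). HSPE1 was counted at 5.02 CPM per kb in DMSO, a level per length, against 82.0 for HSPD1, and a readthrough gene overlaps HSPE1, so its counts are uncertain. All 8 TRiC members had a fold change below 0, with a median of −0.26, and 4 were called lower (50%, beside 18.4% of all genes). CCT4 was at 280, 280 and 297 CPM in DMSO and 224, 208 and 239 in BIX (log2 fold change −0.35, SE 0.07, adjusted p = 0.001065), CCT3 fell by 0.35 (SE 0.07, adjusted p = 0.002339) and CCT5 by 0.32 (SE 0.06, adjusted p = 0.001145). CCT6A also passed, with a log2 fold change of −0.19. CCT7 and CCT2, at −0.02 each, had overlapping groups, so the subunits of this complex, which are assembled in equal number, did not all pass the test, though the difference between subunits was not tested. TCP1, the subunit that the symbol rule leaves out, was called lower too (log2 fold change −0.28, SE 0.06, adjusted p = 0.003565).

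**Figure D2:**
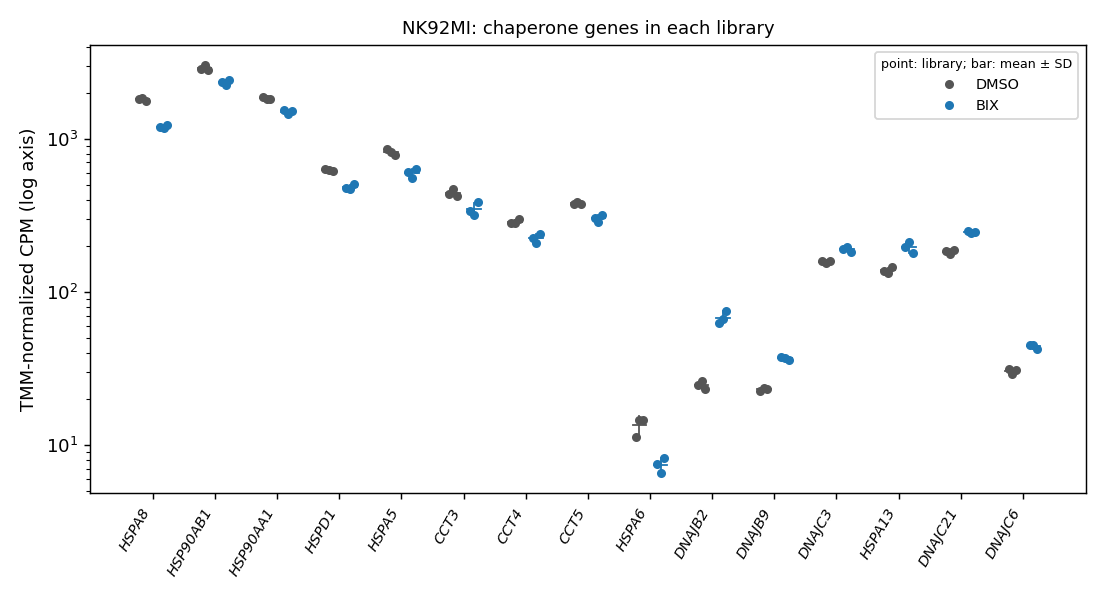
TMM-normalized CPM on a log axis for 15 human members (horizontal axis) in each NK92MI library, with grey points for DMSO, blue points for BIX, and bars for the mean ± SD of 3 libraries. From HSPA8 to HSPA6 the BIX points sit below the DMSO points, and from DNAJB2 to DNAJC6 they sit above them.

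J-domain proteins, which choose clients for HSP70 and trigger its ATPase, moved in both directions. DNAJB2, a J-domain protein that binds ubiquitin and passes clients to the proteasome, was at 24.8, 26.4 and 23.2 CPM in DMSO and 62.2, 66.3 and 75.3 in BIX. That difference was the largest called rise of any member, 2.74-fold (log2 fold change 1.45, SE 0.09, adjusted p = 1.052e-07). DNAJB9, the BiP co-chaperone ERdj4, was at 22.7, 23.7 and 23.1 CPM in DMSO and 37.8, 37.2 and 36.1 in BIX (log2 fold change 0.68, SE 0.08, adjusted p = 3.561e-05). DNAJB6, a suppressor of protein aggregation, rose by 0.21 (adjusted p = 0.01286) and DNAJB14, a J-domain protein of the ER membrane, by 0.22 (adjusted p = 0.03898), the latter with overlapping groups. DNAJB14 was not called without DMSO library 1 or 2 or BIX replicate 1 or 2 (adjusted p 0.06405 to 0.1731, the DMSO libraries being numbered by column), and DNAJB6 was not called without DMSO library 3 or BIX replicate 1 (adjusted p = 0.08042 and 0.05117). DNAJB1, the main partner of HSP70 in the heat shock response, was at 111, 113 and 116 CPM in DMSO and 114, 108 and 121 in BIX (log2 fold change 0.01, adjusted p = 0.9295). In all, 4 of the 9 DNAJB members were called higher (44.4%) and 0 lower, beside 18.4% of all genes in each direction. DESeq2 also called 4 higher and 0 lower, beside 15.5% and 14.5% of all genes. An unadjusted p under 0.05 was reached by 6 of the 9, beside 46.1% of all genes. The summed level of the DNAJB members was 735, 729 and 737 CPM in DMSO and 874, 858 and 880 in BIX.

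The DNAJC family, the most varied class, had 5 members called higher (21.7%) and 8 lower (34.8%) of 23. Over all genes tested, 18.4% were called in each direction. DNAJC21, a factor of ribosome assembly, was at 184, 176 and 188 CPM in DMSO and 250, 243 and 247 in BIX (log2 fold change 0.43, SE 0.06, adjusted p = 9.162e-05). DNAJC6, the auxilin that strips clathrin from vesicles, was at 31.5, 29.2 and 30.7 CPM in DMSO and 45.2, 44.7 and 42.1 in BIX (log2 fold change 0.53, SE 0.08, adjusted p = 0.0001987). DNAJC3, an ER co-chaperone that also restrains the kinase PERK, was at 160, 155 and 158 CPM in DMSO and 190, 196 and 183 in BIX (log2 fold change 0.27, SE 0.06, adjusted p = 0.003213). In these 3 genes every BIX library lay above every DMSO library. DNAJC25 (log2 fold change 0.55) and DNAJC9, a histone chaperone (log2 fold change 0.30), completed the members that rose, and DNAJC9 was not called without DMSO library 1 or BIX replicate 3 (adjusted p = 0.1078 and 0.05554).

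On the other side, DNAJC13, which acts on endosomes, was at 147, 141 and 151 CPM in DMSO and 104, 127 and 94.4 in BIX (log2 fold change −0.43, SE 0.09, adjusted p = 0.002272). DNAJC1, of the ER membrane, fell by 0.32 (adjusted p = 0.003917), DNAJC11, of mitochondria, by 0.31 (adjusted p = 0.005591), and DNAJC14 by 0.43 (adjusted p = 0.007451). DNAJC30, another mitochondrial protein, was low, at 4.25, 5.26 and 4.79 CPM in DMSO and 3.23, 2.76 and 2.66 in BIX (log2 fold change −0.73, SE 0.19, adjusted p = 0.008885). The other DNAJC members that fell were DNAJC17, DNAJC2 and DNAJC4. In the DNAJA family DNAJA3, of mitochondria, was called lower (log2 fold change −0.22, adjusted p = 0.01266), and DNAJA1, the most highly expressed J-domain protein per length, was at 379, 370 and 364 CPM in DMSO and 384, 348 and 380 in BIX (log2 fold change 0.00, adjusted p = 0.9867). DNAJC8, the DNAJC member with the highest level per length, was at 212, 214 and 215 CPM in DMSO and 226, 210 and 239 in BIX, with overlapping groups (log2 fold change 0.08, adjusted p = 0.3809).

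The heat shock factors did not pass the test. HSF1 was at 53.3, 53.2 and 49.8 CPM in DMSO and 46.0, 45.7 and 58.4 in BIX (log2 fold change −0.06, SE 0.10, adjusted p = 0.6667), and HSF2 at 60.1, 53.8 and 54.4 and at 58.9, 56.3 and 61.2 (log2 fold change 0.07, adjusted p = 0.5152). Both had overlapping groups, and the approximate interval of 2 SE around each estimate includes 0. Of the 11 pseudogene, antisense and divergent members tested, 3 were called lower (27.3%), CCT6P1, DNAJC3-DT and DNAJC9P1, and 0 higher. Among all genes tested, 18.4% were called in each direction. An unadjusted p under 0.05 was reached by 3 of the 11, beside 46.1% of all genes. DNAJC9P1 was near the detection limit, at 1.51, 0.935 and 0.592 CPM in DMSO and 0.122, 0.470 and 0.236 in BIX (log2 fold change −1.84, SE 0.53, adjusted p = 0.0148), and lost the call without DMSO library 1 or BIX replicate 1 (adjusted p = 0.08899 and 0.07347). Pseudogene reads may come from the parent gene, and the strand setting is not given in the sources used here, so divergent transcripts cannot be told from overlapping reads. At the count minimum, DNAJC8P2 lay just inside with too few counts to be tested, and DNAJB13 just outside, with 5, 5 and 4 counts in DMSO and 8, 18 and 10 in BIX.

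Genes that work with the members were taken from lists of co-chaperones and stress genes. The counts called in these lists stand beside 18.4% of all genes called higher and 18.4% called lower. Of 18 HSP90 co-chaperones tested in NK92MI 1 was called higher and 6 lower, with a median of −0.16. STIP1, which hands clients from HSP70 to HSP90, fell by 0.31 (adjusted p = 0.00167), AHSA1, the activator of HSP90 ATPase, by 0.33 (adjusted p = 0.003262), and CHORDC1 by 0.51 (adjusted p = 9.419e-05). Of 15 HSP70 co-chaperones 3 were called higher and 3 lower (20% each, near the share of all genes), and DESeq2 called 2 and 3. Mitochondrial protein quality genes had 1 called higher and 4 lower of 10, among them TRAP1, the mitochondrial HSP90, at 118, 121 and 116 CPM in DMSO and 75.0, 70.2 and 82.6 in BIX (log2 fold change −0.64, SE 0.07, adjusted p = 1.462e-05). Of 10 TRiC and prefoldin genes outside the rule, 1 was called higher and 2 lower, with the TRiC subunit TCP1, given above, among the lower.

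ER folding and stress genes outside the rule had 2 called higher and 5 lower of 16 and a median of 0.05. The calls were 12.5% and 31.2% of the list, beside 18.4% and 18.4% of all genes. DDIT3, the stress factor CHOP, rose by 1.49 (SE 0.16, adjusted p = 1.221e-05), while XBP1, a transcription factor of the unfolded protein response, fell by 0.95 (SE 0.09, adjusted p = 3.204e-06) and SDF2L1, a BiP partner, by 1.22 (SE 0.14, adjusted p = 1.999e-05). ATF4 was called lower (log2 fold change −0.39, adjusted p = 0.004115, edgeR), as were PDIA4 and PDIA6, and CRELD2 was called higher. Heat shock response genes outside the rule had 5 called higher (45.5%) and 4 lower (36.4%) of 11. Of the 11, 5 (AHSA1, BAG3, CHORDC1, FKBP4 and STIP1) also stand in the co-chaperone lists. The lower calls were AHSA1, CHORDC1 and STIP1, given above, and DEDD2 (log2 fold change −0.51, adjusted p = 0.002432). SERPINH1, the collagen chaperone HSP47, was at 0.582, 0.877 and 0.473 CPM in DMSO and 3.17, 2.94 and 2.60 in BIX (log2 fold change 2.16, SE 0.31, adjusted p = 0.0001201), a rise from a low level. The autophagy receptor SQSTM1 rose by 0.64 (adjusted p = 3.51e-05). BAG3, the HSP70 co-chaperone that leads clients to autophagy, was also low. It was at 1.46, 1.52 and 0.71 CPM in DMSO and 2.56, 1.76 and 2.42 in BIX (log2 fold change 0.86, SE 0.32, adjusted p = 0.04822). DESeq2 called 4 of the 11 heat shock response genes higher and 4 lower. Immediate early genes, which respond to handling as well as to signals, had 9 called higher (64.3%) and 1 lower (7.14%) of 14. They summed to 908.2 to 935 CPM in DMSO and 1504 to 1698 in BIX. Their part in the chaperone values was not tested.

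In spleen NK cells few members passed the test between KO and WT. Of 70 members 2 were called higher (2.86%), Dnaja1 and Dnajb1, and 2 lower (2.86%), Hspa9 and Dnajc6, against a background of 4.44% of 13189 tested genes called higher and 7.43% lower. The median log2 fold change was −0.014 over the members and 0.014 over all genes tested, and 18 of 70 members had an unadjusted p under 0.05, beside 35.8% of all genes. Groups did not overlap in 14 members that were higher (20%) and 13 that were lower (18.6%), beside 19.1% and 19.3% of all genes. DESeq2 called 5 higher and 5 lower, beside 7.89% and 14.4% of all genes. At the study's thresholds (a |log2 fold change| above 0.5 with an adjusted p below 0.01) DESeq2 called 1 member higher and 1 lower (2.88% and 7.9% of all genes), and edgeR called 0 in either direction among members and among all genes (0%). These counts depended on single libraries. Without WT replicate 1, WT replicate 3, KO replicate 2 or KO replicate 3, edgeR called 0 members in either direction. Over all genes it called 35 higher and 64 lower without WT replicate 1, 6 and 8 without WT replicate 3, and 0 in either direction without KO replicate 2 or KO replicate 3. Leaving out WT replicate 2, the shallowest library and the WT library with the highest NK cell genes, gave 8 members higher and 7 lower, beside 10.7% and 15.6% of all genes. Without KO replicate 1 there were 2 and 2, beside 5.17% and 9.96% of all genes, of which Dnaja1 and Hspa9 were among the 4 named.

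Dnaja1 and Dnajb1 encode J-domain proteins of the cytosol that work with HSC70, and both were higher in every KO library. Dnaja1 was at 71.0, 66.6 and 69.7 CPM in WT and 97.9, 90.2 and 89.0 in KO, 1.34-fold higher (log2 fold change 0.42, SE 0.08, adjusted p = 0.03191, edgeR). Dnajb1 was at 60.2, 68.9 and 68.2 CPM in WT and 93.8, 88.5 and 76.7 in KO (log2 fold change 0.39, SE 0.10, adjusted p = 0.04884), and the adjusted p was 0.0515 with DESeq2 size factors, 0.05122 with a minimum mean CPM of 1 and 0.05165 with counts halved. Without KO replicate 1 its log2 fold change was 0.32 (adjusted p = 0.07885). Hspa9, mitochondrial HSP70, was at 132, 112 and 121 CPM in WT and 90.6, 84.1 and 88.9 in KO (log2 fold change −0.47, SE 0.09, adjusted p = 0.03043). Dnajc6 was sparse, at 5.53, 4.27 and 3.49 CPM in WT and 1.305, 2.53 and 2.03 in KO (log2 fold change −1.18, SE 0.30, adjusted p = 0.04767). For both lower genes the lowest WT library lay above the highest KO library.

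**Figure D3:**
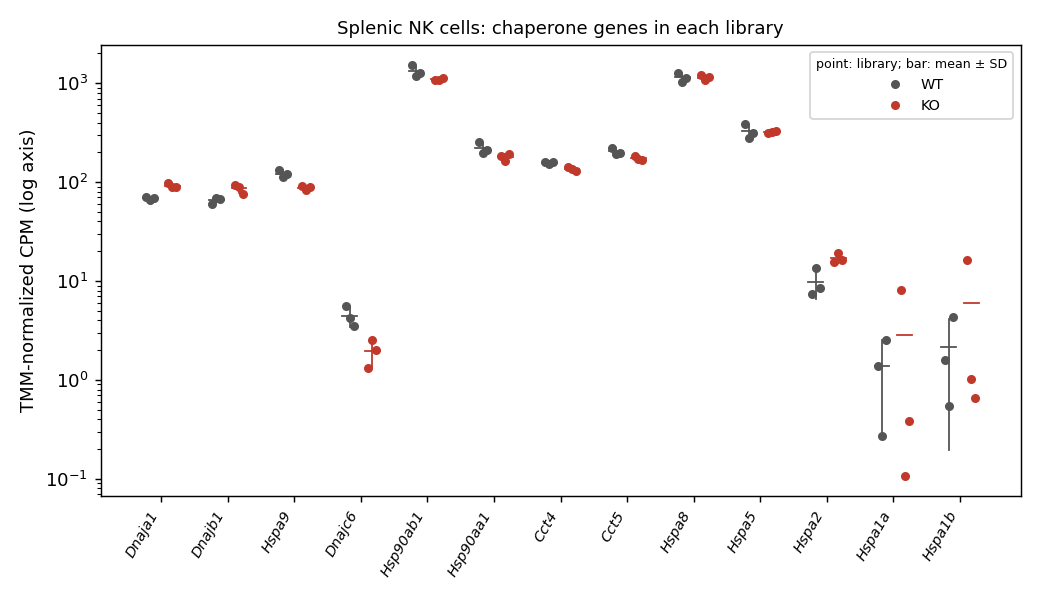
TMM-normalized CPM on a log axis for 13 mouse members (horizontal axis) in each spleen NK library, with grey points for WT, red points for KO, horizontal bars for the mean and vertical bars for ± SD of 3 libraries (left out where the mean minus SD is below 0). Dnaja1 and Dnajb1 are higher in all KO libraries, and KO replicate 1 alone lies high for Hspa1a and Hspa1b.

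The stress-inducible HSP70 genes Hspa1a and Hspa1b, neighbours on chromosome 17, were set apart by a single library. Hspa1a was at 1.38, 0.271 and 2.52 CPM in WT and at 8.10, 0.108 and 0.384 in KO. Hspa1b was at 1.59, 0.543 and 4.35 CPM in WT and at 16.2, 1.02 and 0.658 in KO. KO replicate 1 held the highest value of both genes, and the groups overlapped. Neither passed the test (log2 fold changes 1.01, SE 1.31, adjusted p = 0.6034, and 1.44, SE 1.20, adjusted p = 0.4155), and without KO replicate 1 the fold changes were −2.51 and −1.38. The same library had the highest sum of immediate early genes, 2952 CPM, where the other 5 lay between 2210 and 2670, and the part of handling was not tested. The genes are near-identical copies, so the split of reads between them is uncertain. Of the mouse members, Hspa1a and Dnajb3 reached the count minimum in the fewest libraries, with counts of 51, 7 and 94 in WT and 298, 4 and 14 in KO for Hspa1a. Hspb9 (0, 14 and 10 in WT, 4, 0 and 6 in KO) lay just outside it.

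The mouse HSC70, HSP90 and BiP genes did not pass the test. Hspa8 was at 1282, 1037 and 1131 CPM in WT and 1197, 1078 and 1143 in KO, with overlapping groups (log2 fold change −0.01, SE 0.11, adjusted p = 0.9405). Hspa5 was at 383, 281 and 314 CPM in WT and 317, 322 and 329 in KO (log2 fold change −0.02, SE 0.12, adjusted p = 0.9378). Both estimates were near 0 and, as the SE shows, a change of the size of that of Hspa9 would lie outside 2 SE. Hsp90ab1, the member with the highest level per length, was at 1523, 1187 and 1256 CPM in WT and 1078, 1090 and 1141 in KO (log2 fold change −0.26, adjusted p = 0.1618), and Hsp90aa1 at 254, 198 and 214 and at 184, 164 and 192 (log2 fold change −0.30, adjusted p = 0.1066). For both genes all KO libraries lay below all WT libraries without a call. Hsp90b1 was at 459, 303 and 329 CPM in WT and 329, 349 and 368 in KO (log2 fold change −0.06, adjusted p = 0.7972).

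Among the mouse chaperonins, the TRiC members were Cct2, Cct3, Cct4, Cct5, Cct7 and Cct8. Cct6a was not among the matching symbols, and the symbol rule leaves out Tcp1. All 6 TRiC members had fold changes below 0, with a median of −0.17 beside 0.014 over all genes tested. Of the 6, 4 were lower in every KO library, beside 19.3% of all genes. None was called by edgeR or DESeq2, and 2 had an unadjusted p under 0.05, beside 35.8% of all genes. Cct5 was at 221, 193 and 199 CPM in WT and 182, 171 and 167 in KO (log2 fold change −0.24, adjusted p = 0.09125), and Cct2, the subunit with the highest level per length, at 220, 212 and 202 and at 196, 178 and 186 (log2 fold change −0.18, adjusted p = 0.1433). Without WT replicate 1 the TRiC median was −0.12. Hspd1 was at 118, 91.4 and 104 CPM in WT and 97.2, 87.8 and 91.7 in KO (log2 fold change −0.18, adjusted p = 0.2551), and Hspe1 had a log2 fold change of −0.29 (adjusted p = 0.3244). WT replicate 1 had the highest WT value in Hspa5, Hsp90ab1, Hsp90b1, Hspd1 and Hspe1, and also in Hspa8, Hsp90aa1, Hspa9 and every TRiC member. Over all 70 members its sum was 7765 CPM, where WT replicates 2 and 3 had 6713 and 6973. In the DNAJB and DNAJC families WT replicate 2 had the highest WT sum. WT replicate 1 was also the library with the highest macrophage sum, 10920 CPM, and a link between these sums was not tested.

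The rest of the mouse families gave no further call. Hsf1 was at 81.3, 85.0 and 88.7 CPM in WT and 103, 112 and 90.9 in KO, higher in every KO library (log2 fold change 0.26, SE 0.10, adjusted p = 0.09546), and Hsf2 had a log2 fold change of 0.20 (adjusted p = 0.3742). Hsph1 had one of 0.25 (adjusted p = 0.1799), Dnajc3 0.28 (adjusted p = 0.07938), Dnajb9 −0.03 (adjusted p = 0.8831), Dnajb11 0.14 (adjusted p = 0.2109), Dnaja2 0.08 (adjusted p = 0.4773), Dnajc8 −0.05 (adjusted p = 0.6652) and the small heat shock protein Hspb6 −0.38 (adjusted p = 0.1658). Hspa2, which was chosen after its values were seen, was at 7.39, 13.4 and 8.60 CPM in WT and 15.6, 19.3 and 16.3 in KO, without overlap, and had the smallest adjusted p of the members not called, 0.05507 (log2 fold change 0.80, SE 0.22). Co-chaperones of HSP90 had 2 of 19 called higher, Ahsa2 (log2 fold change 0.47, adjusted p = 0.03485) and Chordc1 (0.32, adjusted p = 0.04931), and 0 lower. These were 10.5% and 0% of the list, beside 4.44% and 7.43% of all genes. In the lists of HSP70 co-chaperones (15 genes), TRiC and prefoldin genes outside the rule (10), ER folding genes (16) and mitochondrial protein quality genes (11) edgeR called 0 genes, with 3, 0, 1 and 2 at an unadjusted p under 0.05, and DESeq2 called 2, 0, 1 and 0. Of 12 heat shock response genes outside the rule Chordc1, counted above, alone was called, and of 15 immediate early genes Jund alone.

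Of the members tested in both tables, 58 in all, 32 had fold changes of the same sign, 13 above and 19 below 0. None was called higher in both or lower in both, and 28 were called in neither. DNAJC6 was called in both with opposite signs, lower in KO spleen NK cells and higher in BIX-treated NK92MI. Across these genes, which are not independent replicates, the fold changes had a Pearson r of −0.03 and a Spearman rho of 0.13. The comparisons differ in species, in cell and in whether the gene was deleted or the enzyme inhibited, and the spread between libraries was 18.2% (biological coefficient of variation) in mouse and 7.6% in human, so a call in 1 table only does not show that the effects differ, and that difference was not tested.

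**Figure D4:**
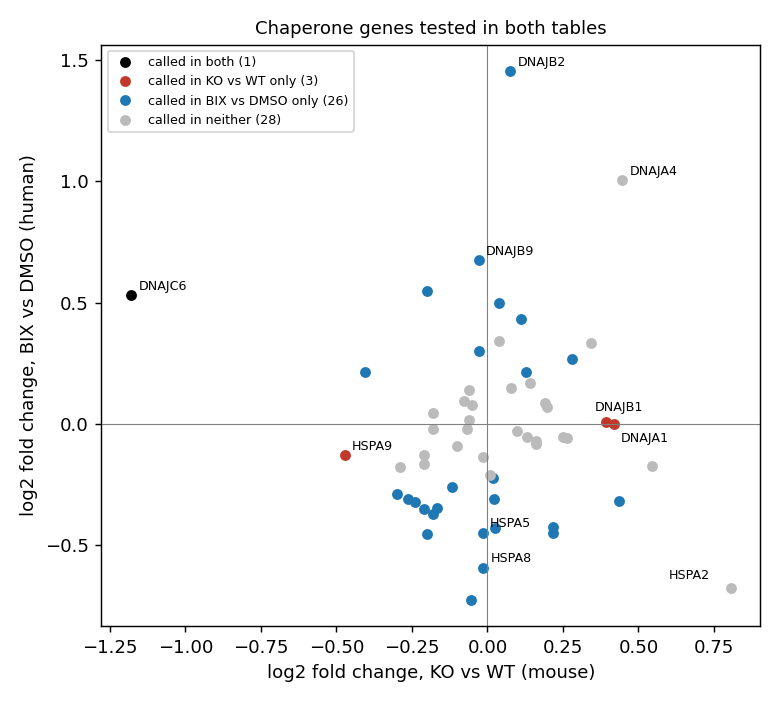
The log2 fold change of each of the 58 members tested in both tables, KO against WT in mouse (horizontal axis) and BIX against DMSO in human (vertical axis), coloured by where the gene had an adjusted p under 0.05. DNAJC6 alone was called in both, at −1.18 and 0.53, and the other calls, 3 in mouse and 26 in human, were made in 1 table.

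In level per length, HSP90AB1 and HSPA8 stood highest in the controls of both tables. In NK92MI with DMSO, HSP90AB1 stood at 972 CPM per kb, followed by HSPA8 at 372, HSP90AA1 at 360, CCT7 at 142, DNAJA1 at 139 and HSPA5 at 125. In WT spleen NK cells Hsp90ab1 stood at 441, Hspa8 at 267, Hsp90b1 at 90.2, Cct2 at 82.8, Hspa5 at 77.1 and Cct5 at 73.9. HSPA8 and HSP90AA1 in NK92MI lay close together, and so did Hspa5 and Cct5 in WT spleen NK cells. The levels of the 2 species come from separate tables and were not compared with each other in size. Gene lengths were taken from GENCODE models that may not be those used for counting.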

How the data were processed

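The data were counts per gene of 12 RNA-seq libraries. As deposited by the authors they are raw counts: reads were trimmed with fastp 0.23.4, aligned with STAR 2.7.11b (mouse to GRCm38/mm10, human to GRCh38/hg38) and assigned to genes with HTSeq 2.0.3. The annotation release and strand setting are not given in the sources used here. Members and lists were chosen with earlier results of these data known. Each table was fitted separately with edgeR 4.0.16 (R 4.3.3): filterByExpr, TMM, the quasi-likelihood test and Benjamini-Hochberg adjustment over all genes tested, called at an adjusted p under 0.05. SE is the size of the log2 fold change over the root of F. Named were up to 15 called members in each direction by p, the highest member per length of each family, a list of 18 classic genes, and members with groups that did not overlap and a |log2 fold change| over 1. Control columns in human could not be tied to replicate numbers and entered as a group. Low mouse counts were mostly even (87.8 to 90.6% of counts from 1 to 10, against 43 to 45.2% in human), as if both mates of a pair had been counted, so that counting intervals would be too narrow and none are given. Lengths, positions and gene classes are from GENCODE vM21 and v44. Alternatives used DESeq2 1.42.0 and limma 3.58.1. The test was also run on simulated counts, which checks the code and not the calls made in these libraries.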

Additional observations from a re-analysis of the deposited data

How the results depend on the processing

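Of the counts of members called, those of BIX against DMSO stayed within 1.5 times under every alternative that kept the threshold (8 to 12 higher and 18 to 26 lower). The stricter thresholds gave 4 higher and 3 lower with edgeR and 5 and 2 with DESeq2. In KO against WT, where 2 members were called higher and 2 lower, DESeq2 size factors, a mean CPM of at least 1 and halved counts each gave 1 higher, DESeq2 gave 5 and 5, DESeq2 at the stricter thresholds 1 and 1 and edgeR at them 0 and 0, and no filter and limma-voom gave 3 higher. Leaving out each library gave 0 to 8 higher and 0 to 7 lower. The cause was not tested. Halved counts and edgeR with robust estimation were chosen after seeing the data.

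With the replicate block 6 members were called higher and 6 lower, beside 1292 higher (9.8%) and 1930 lower (14.6%) over all genes. Hsp90aa1 was among the members (adjusted p = 0.0448), and Hspa1a had a log2 fold change of −0.0916. The numbers do not pair the mouse libraries by the data: the deviations of WT and KO libraries with the same number correlated at 0.281, 0.352 and −0.188, and KO replicates 1 and 3 and WT replicate 3 did not correlate best with their own number. In human no paired analysis was possible because the control columns carry no replicate number.

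Signs that changed belonged to genes that were not called. In KO against WT limma-voom gave −0.612 for Hspa1a and 3e-04 for Hspa5. Over the libraries left out in turn the log2 fold change ranged from −2.51 to 1.74 for Hspa1a, −1.38 to 2.44 for Hspa1b, −0.0802 to 0.0722 for Hspa8, −0.11 to 0.12 for Hspa5, −0.1007 to 0.0665 for Dnajb9 and −0.17 to 0.14 for Hsp90b1. In BIX against DMSO DNAJA1 was at 0.0039 with DESeq2 size factors, 0.0034 with no filter and 0.003 with DESeq2, and DNAJB1 at −0.0043 with library totals, and the ranges over libraries left out were −0.0214 to 0.047 for DNAJA1, −0.0297 to 0.0509 for DNAJB1, −0.0941 to 0.0486 for CCT7, −0.008 to 0.0674 for HSP90B1 and −0.18 to 0.0075 for HSF1.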
